A study of Mus musculus with 9 samples.

Results

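Prostaglandins, thromboxane and leukotrienes are lipid signals made from arachidonic acid, and 10 genes that encode steps of their synthesis were followed in mouse brain after haemorrhage: Pla2g4a, Ptgs1, Ptgs2, Ptges, Ptgds, Hpgds, Tbxas1, Alox5, Alox5ap and Ltc4s. They were taken by gene name from the deposited expression table, where each was found in 1 row, so that 10 of 35112 genes were members, and all 10 passed the filter on low counts that left 21900 genes tested. The study compared brains of wild-type C57BL/6 mice in 3 groups of 3 animals, each animal giving 1 library of polyadenylated RNA. The groups were intracerebral haemorrhage with P7C3-A20 (ICH+P7C3-A20), intracerebral haemorrhage alone (ICH) and a sham control, all sampled 72 hours after treatment. P7C3-A20 is an aminopropyl carbazole studied for protection of neurons. The labels name neither the brain region, nor the dose, nor the age of the mice, nor how the haemorrhage was made, and the title asks how P7C3-A20 affected gene expression after this injury.

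Cytosolic phospholipase A2 (Pla2g4a) frees arachidonic acid from membranes. The cyclooxygenases Ptgs1 (COX-1, largely constitutive) and Ptgs2 (COX-2, inducible and also made by excitatory neurons) turn it into prostaglandin H2, which Ptges converts to prostaglandin E2, Ptgds and Hpgds to prostaglandin D2 and Tbxas1 to thromboxane A2. In the other branch 5-lipoxygenase (Alox5), helped by its activating protein Alox5ap, makes leukotriene A4, and Ltc4s joins that to glutathione to give leukotriene C4. In brain, Ptgs1, Hpgds, Tbxas1, Alox5ap and Ltc4s are known mainly from microglia and other myeloid cells, and Ptgds from the meninges, the choroid plexus and oligodendrocytes.

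The libraries held 51537047 to 63324728 estimated counts, and across tested genes they correlated at 0.959 to 0.973 within groups and 0.927 to 0.967 between groups (log2 CPM, where CPM are counts scaled to a common library total with edgeR's TMM factors). Mitochondrially encoded transcripts took 9.14% to 18.5% of counts. Markers of neurons, astrocytes and oligodendrocytes were present in every library, as the brain label says. Library ICH+P7C3-A20 1 stood apart from the other 2 of its group, at -34.5 on the first principal component against 17.4 and 18.5, and sham 3 differed from sham 1 and 2 in cortical neuron markers, with a summed FPKM of 74.6 against 28.1 and 21.6. Slc17a7 made up 61.6% of that sum in sham 3, and 2 of the 8 markers were lowest there, Rasgrf2 (3.76 FPKM in sham 3, 7.52 in sham 1 and 6.83 in sham 2) and Cux2 (1.99, 2.72 and 3.32 in the same order). FPKM are fragments scaled by transcript length and by the library total, so they can be compared between genes. Results that rest on these libraries are given with and without them.

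The promoters of Ptgs1, Hpgds, Tbxas1 and Alox5, all called higher in ICH than in sham, are shown with the promoter of Ptgds, which was not called. Of the 10 members, 9 had a RefSeq promoter window (build GRCm38.p6) of 250 bases before to 50 bases after the transcript start, and Alox5ap had none. The hexamer GAGGAA, which holds the GGAA core bound by ETS factors such as the myeloid factor PU.1, was present on either strand in the windows of 7 of the 9 members (Ptgs1, Ptgs2, Ptges, Hpgds, Tbxas1, Alox5 and Ltc4s), against 28.3% of all 32851 windows of 300 bases. The windows of Ptgds and Pla2g4a did not hold it, although Pla2g4a was called higher in ICH than in sham. Ptgs2 held it and was not called, so the hexamer did not follow the calls in every member. All printed windows but that of Ptgds hold it, so they do not stand for all members. The 250 bases before the start of 5 members follow, 5′ to 3′ on the gene's strand, with the hexamer or its reverse complement in capitals.
Ptgs1, chr2:36230176-36230425, plus strand: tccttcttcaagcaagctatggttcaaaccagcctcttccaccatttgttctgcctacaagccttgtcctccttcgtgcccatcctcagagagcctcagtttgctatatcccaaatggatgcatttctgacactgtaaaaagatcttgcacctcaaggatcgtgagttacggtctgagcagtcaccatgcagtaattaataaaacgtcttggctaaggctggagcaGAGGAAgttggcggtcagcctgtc
Hpgds, chr6:65144731-65144980, minus strand: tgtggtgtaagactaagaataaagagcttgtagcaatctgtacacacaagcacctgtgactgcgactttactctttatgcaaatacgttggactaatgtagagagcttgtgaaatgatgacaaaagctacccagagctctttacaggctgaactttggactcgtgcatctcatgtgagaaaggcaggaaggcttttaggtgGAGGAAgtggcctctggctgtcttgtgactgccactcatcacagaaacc
Tbxas1, chr6:38918736-38918985, plus strand: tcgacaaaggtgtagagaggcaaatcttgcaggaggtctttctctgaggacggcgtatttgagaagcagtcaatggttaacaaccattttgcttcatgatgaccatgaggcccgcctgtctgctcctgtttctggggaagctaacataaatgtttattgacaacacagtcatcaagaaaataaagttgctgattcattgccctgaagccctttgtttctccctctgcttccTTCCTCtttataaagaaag
Alox5, chr6:116461179-116461428, minus strand: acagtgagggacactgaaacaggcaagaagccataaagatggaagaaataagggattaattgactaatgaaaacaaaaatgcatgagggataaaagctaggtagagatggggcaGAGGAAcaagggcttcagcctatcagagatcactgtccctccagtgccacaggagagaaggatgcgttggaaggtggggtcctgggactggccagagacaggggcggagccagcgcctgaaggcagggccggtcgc
Ptgds, chr2:25469750-25469999, minus strand: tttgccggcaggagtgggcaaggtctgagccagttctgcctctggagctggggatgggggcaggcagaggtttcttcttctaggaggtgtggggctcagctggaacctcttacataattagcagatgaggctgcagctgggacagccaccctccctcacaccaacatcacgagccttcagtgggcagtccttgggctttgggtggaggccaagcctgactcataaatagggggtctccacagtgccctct
In these stretches the hexamer began 24 bases before the start in Ptgs1, 49 in Hpgds, 19 in Tbxas1 and 136 in Alox5. The table places Ptgs1 (ENSMUSG00000047250) at chr2:36230426-36252272 on the plus strand, Hpgds (ENSMUSG00000029919) at chr6:65117293-65144908 on the minus strand, Alox5 (ENSMUSG00000025701) at chr6:116410077-116461178 on the minus strand and Ptgds (ENSMUSG00000015090) at chr2:25466709-25470046 on the minus strand, positions identical to GENCODE M21 (GRCm38). Tbxas1 (ENSMUSG00000029925) is at chr6:38875404-39084585 on the plus strand, and its RefSeq window lies inside that span. The printed Ptgds stretch likewise lies wholly inside the span of Ptgds, and that of Hpgds lies partly inside the span of Hpgds. Those of Ptgs1 and Alox5 lie just before their genes. The TATA box letters TATAAA were found in the Tbxas1 window and in an additional Pla2g4a window inside the gene, against 13.6% of all windows. The Pla2g4a match began 200 bases before the start of that window's transcript. The window at the start of the Pla2g4a gene held none. The window of Ptgs2 held the C/EBP letters TTGCNNAA (10.8% of all windows), as did that of Hpgds. The Ptgs2 window also held the cAMP response element TGACGT (7.51%) and the E-box CACGTG (7.15%), which overlapped by 2 bases just after the start. The Sp1 letters GGGCGG (35.7%) were in the Ptgs2, Ptges and Alox5 windows. These are matches of letters, and binding was not measured.

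ICH against sham asks what the haemorrhage did to this pathway by 72 hours. Of the 10 members, 8 were higher in ICH: Pla2g4a, Ptgs1, Ptges, Hpgds, Tbxas1, Alox5, Alox5ap and Ltc4s. None was lower. Ptgs2 and Ptgds missed the threshold, an adjusted p under 0.05 in edgeR's quasi-likelihood test with Benjamini-Hochberg adjustment over all tested genes. Among all tested genes 15.6% were called higher and 10.4% lower in this comparison. In 9 members every ICH library lay above every sham library, as 23.3% of tested genes did, and in 0 members every ICH library lay below (18.8% of tested genes). The members' median log2 change was 1.78, against 0.002 over all tested genes. A change in the number of cells of a type and a change in RNA per cell cannot be told apart in such bulk samples.

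**Figure D1:**
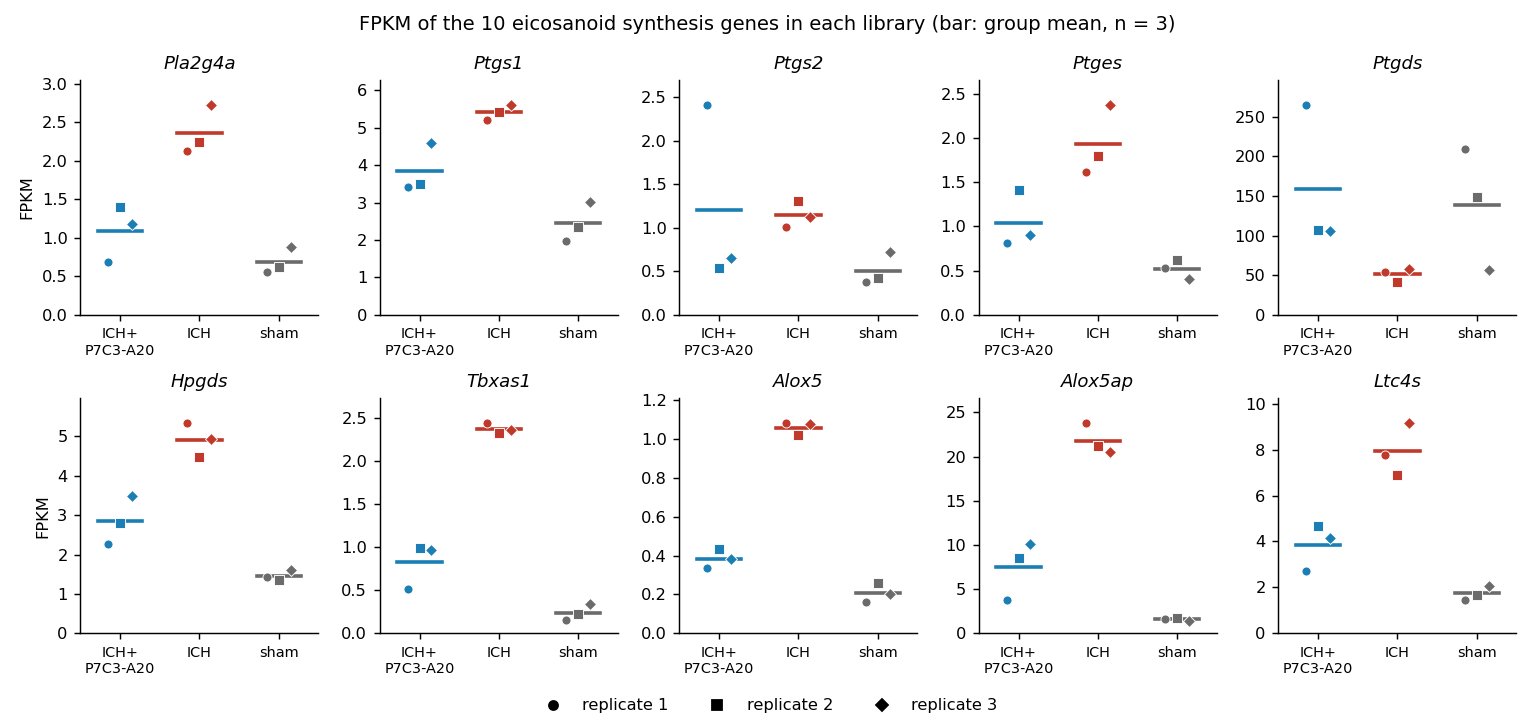
FPKM of each member in each library (vertical axes start at 0 and differ between panels), with ICH+P7C3-A20 in blue, ICH in red and sham in grey, a symbol per replicate and a bar at the group mean. In 8 panels the 3 ICH libraries sit above all others, while Ptgds is lowest in ICH apart from sham 3, and Ptgs2 has 1 high library, ICH+P7C3-A20 1 at 2.41.

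ICH+P7C3-A20 against ICH asks how the compound altered the response. Here 6 of the 10 members were lower in ICH+P7C3-A20, namely Pla2g4a, Hpgds, Tbxas1, Alox5, Alox5ap and Ltc4s, and 0 were higher. All 3 members of the leukotriene branch are in that set, and neither cyclooxygenase is. That split rests on the threshold. Ptgs1 was also lower in every ICH+P7C3-A20 library than in any ICH library (log2 change -0.43), without being called. Alox5ap and Ltc4s lost their calls when some single libraries were left out. A difference between the branches was not tested. Among all tested genes 6.05% were called lower and 2.69% higher. In 8 members every ICH+P7C3-A20 library lay below every ICH library (18.5% of tested genes), and in Ptgds alone every one lay above (15.1% of tested genes). The median log2 change of the members was -0.92, against -0.007 over all tested genes. This comparison shares the 3 ICH libraries with the one before, so the 2 sets of changes are not independent of each other. In all 8 cortical neuron markers, a list chosen after seeing the data, every ICH+P7C3-A20 library lay above every ICH library. Their median log2 change was 1.52, and 1 of the 8 was called. The labels do not name the brain region, and the part of the tissue sampled in the members' changes was not tested.

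ICH+P7C3-A20 against sham shows what remained different with the compound, using libraries already used above. In it 4 members were higher (Hpgds, Tbxas1, Alox5ap and Ltc4s) and 0 lower, while 4.58% of all tested genes were called higher and 0.744% lower. In 7 members every ICH+P7C3-A20 library lay above every sham library (12.6% of tested genes), and in 0 members below (7.84%). The median log2 change was 0.98, against 0.027 over all tested genes.

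**Figure D2:**
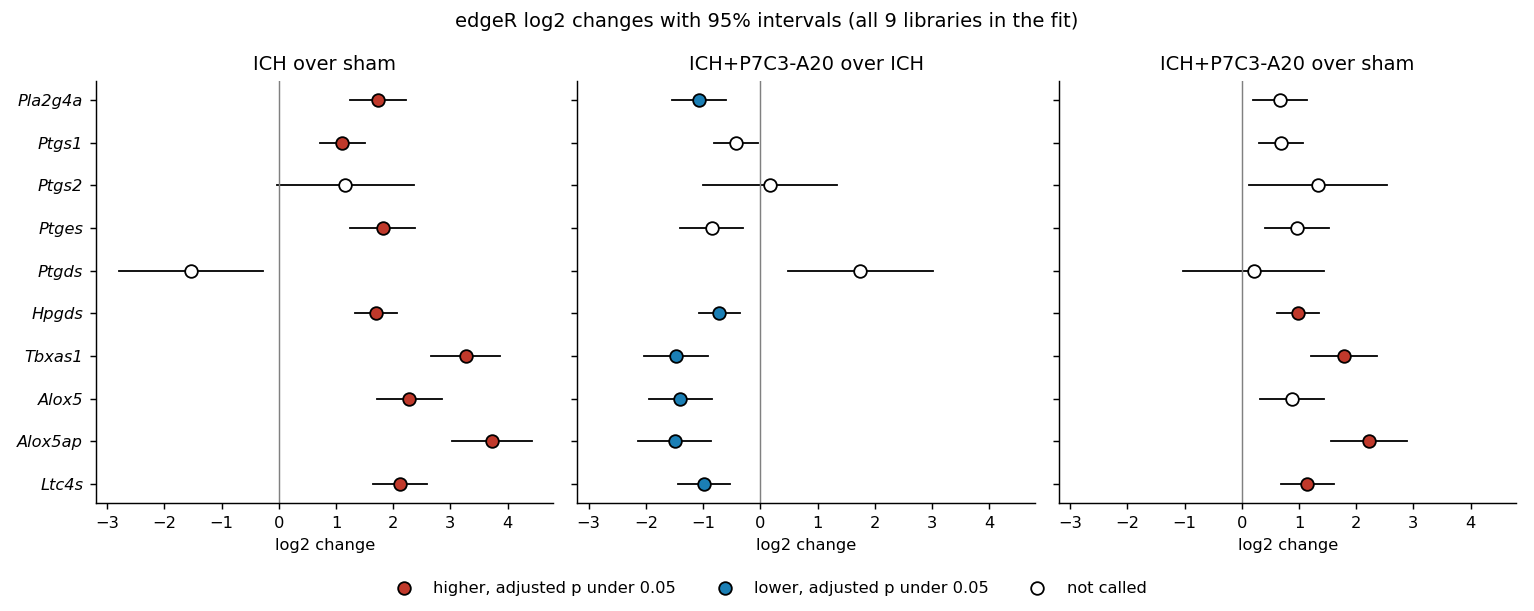
log2 change of each member in the 3 comparisons, from edgeR's fit to estimated counts of all 9 libraries. Points are estimates, lines their 95% intervals, and filled points have an adjusted p under 0.05 (red higher, blue lower). Ptgs2 and Ptgds have the widest intervals in all 3 panels.

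Pla2g4a, the enzyme that starts the pathway, stood at 0.69, 1.40 and 1.18 FPKM in ICH+P7C3-A20, 2.12, 2.25 and 2.73 FPKM in ICH and 0.56, 0.63 and 0.89 FPKM in sham. All 3 ICH libraries were the highest, and ICH+P7C3-A20 1 fell within the sham range. The log2 change was 1.73 ± 0.22 for ICH against sham (adjusted p = 2.42e-04), where each ± beside a log2 change is a standard error, the change over the root of edgeR's F. For ICH+P7C3-A20 against ICH it was -1.07 ± 0.21 (adjusted p = 0.0151). Against sham the ICH+P7C3-A20 libraries gave 0.67 (adjusted p = 0.117), which did not pass, but the call passed without ICH+P7C3-A20 1 (adjusted p = 0.0160).

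Ptgs1, the largely constitutive cyclooxygenase, had 3.41, 3.50 and 4.595 FPKM in ICH+P7C3-A20, 5.21, 5.43 and 5.61 FPKM in ICH and 1.97, 2.36 and 3.01 FPKM in sham. The 3 groups did not overlap, with ICH+P7C3-A20 between ICH and sham. It rose in ICH against sham, by 1.11 ± 0.18 on the log2 scale (adjusted p = 0.00112). Its change in ICH+P7C3-A20 against ICH was -0.43 ± 0.17 (95% interval -0.81 to -0.04, adjusted p = 0.158), and against sham 0.68 (adjusted p = 0.0517). The last of these passed without ICH+P7C3-A20 2 (0.0288) and without sham 3 (0.0430).

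Ptgs2, the inducible cyclooxygenase, had 2.41, 0.54 and 0.65 FPKM in ICH+P7C3-A20, 1.01, 1.31 and 1.13 FPKM in ICH and 0.38, 0.42 and 0.73 FPKM in sham. The single highest library was ICH+P7C3-A20 1, while the other 2 of that group lay below every ICH library and within the sham range. ICH and sham did not overlap, yet the log2 change of 1.16 ± 0.54 did not pass (95% interval -0.04 to 2.36, adjusted p = 0.149). It passed when ICH+P7C3-A20 1 and sham 3 were both left out (1.42, adjusted p = 0.00336) and when only the ICH and sham libraries were fitted (1.16, adjusted p = 0.0136). The pair left out was chosen after seeing the data. Each is the highest Ptgs2 library of its group, so leaving both out lowers the sham mean and the spread by construction. For ICH+P7C3-A20 against ICH the change was 0.17 ± 0.53 (adjusted p = 0.895), and without ICH+P7C3-A20 1 it was -0.94 (adjusted p = 0.155), so its direction rests on that library. The change against sham, 1.33, likewise missed the threshold (adjusted p = 0.223).

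Library ICH+P7C3-A20 1 was also the highest in cortical neuron markers (8 genes, list chosen after seeing the data). Their summed FPKM was 194, 76.1 and 79.8 in ICH+P7C3-A20, 32.7, 42.6 and 45.1 in ICH and 28.1, 21.6 and 74.6 in sham, and sham 3, the second of the libraries set apart, was also the highest of sham in Ptgs2. Activity-dependent genes (8 genes, likewise chosen after seeing the data) summed to 129, 169 and 132 in ICH+P7C3-A20, 74.5, 76.7 and 87.8 in ICH and 91.7, 141 and 228 in sham. In this sum too sham 3 was the highest of sham, whereas ICH+P7C3-A20 1 was the lowest of its group. The part of either list in the Ptgs2 values was not tested.

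The ratio of Ptgs1 to Ptgs2 FPKM was 1.41, 6.53 and 7.06 in ICH+P7C3-A20, 5.15, 4.15 and 4.99 in ICH and 5.26, 5.62 and 4.14 in sham. Ptgs1 was thus the more abundant cyclooxygenase transcript in all 9 libraries, including ICH+P7C3-A20 1.

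Of the synthases that act on prostaglandin H2, Tbxas1 differed most between ICH and sham. Thromboxane synthase transcript was at 0.52, 0.99 and 0.97 FPKM in ICH+P7C3-A20, 2.44, 2.33 and 2.36 FPKM in ICH and 0.16, 0.22 and 0.34 FPKM in sham, so that the 3 groups were separate and ICH the most uniform. Mean CPM in ICH was 9.67 times that in sham, a log2 change of 3.27 ± 0.27 (adjusted p = 1.87e-05). In ICH+P7C3-A20 it was lower than in ICH by a log2 change of -1.48 ± 0.25 (adjusted p = 0.00868) and still higher than in sham, at 1.79 (adjusted p = 0.00315). The call against sham ended with limma on log2(FPKM + 1), where the change was 0.55 (adjusted p = 0.0765, or 0.154 with no filter on low values), and after quantile normalization (0.50, adjusted p = 0.0600). The table's Tbxas1 span overlaps Hipk2 on the opposite strand over 762 bases, and Hipk2 had 2836 to 4785 counts per library. Whether counting used strand is not given in the sources used here, so reads of the 2 genes in that stretch cannot be told apart.

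Ptges, the inducible prostaglandin E synthase, had 0.81, 1.41 and 0.90 FPKM in ICH+P7C3-A20, 1.61, 1.80 and 2.37 FPKM in ICH and 0.53, 0.62 and 0.41 FPKM in sham, again without overlap. It rose in ICH against sham by 1.82 ± 0.26 on the log2 scale (adjusted p = 5.21e-04). The values of ICH+P7C3-A20 against ICH (-0.85 ± 0.25, adjusted p = 0.0608) and against sham (0.97, adjusted p = 0.0531) both missed the threshold. The difference from ICH passed with DESeq2 (adjusted p = 0.00928), with only the compared groups fitted (0.0371) and with limma after quantile normalization (0.0452), which gave 7 members lower in each of these 3 cases. The difference from sham passed with DESeq2 (0.00532), with low genes removed by FPKM in place of counts (0.0401) and without ICH+P7C3-A20 1 (0.0495). The constitutive synthase Ptges2 remained more abundant. The ratio of Ptges to Ptges2 FPKM was 0.26 to 0.38 in ICH+P7C3-A20, 0.62 to 0.73 in ICH and 0.13 to 0.21 in sham.

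Of the pair of prostaglandin D synthases 1 was called. Hpgds, the haematopoietic form, had 2.28, 2.79 and 3.49 FPKM in ICH+P7C3-A20, 5.33, 4.48 and 4.92 FPKM in ICH and 1.43, 1.34 and 1.60 FPKM in sham, with no overlap between groups. It was higher in ICH than in sham (log2 change 1.71 ± 0.17, adjusted p = 4.67e-05), lower in ICH+P7C3-A20 than in ICH (-0.72 ± 0.16, adjusted p = 0.0232) and higher in ICH+P7C3-A20 than in sham (0.98, adjusted p = 0.00629). Limma did not call that last difference (0.64, adjusted p = 0.0517, or 0.114 with no filter, and 0.57, adjusted p = 0.0610, after quantile normalization).

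Ptgds, the lipocalin-type form and the most abundant member in every library, had 265, 107 and 106 FPKM in ICH+P7C3-A20, 54.2, 41.0 and 57.7 FPKM in ICH and 210, 149 and 57.1 FPKM in sham. The 3 ICH libraries were low and close together, while ICH+P7C3-A20 and sham each had a wide spread, and sham 3 lay within the ICH range. The change in ICH against sham was -1.54 ± 0.55 on the log2 scale (95% interval -2.80 to -0.28, adjusted p = 0.0741) and did not pass. Without sham 3 it was -1.94 (adjusted p = 0.0190), and without both sham 3 and ICH+P7C3-A20 1 it was -1.94 as well (adjusted p = 1.52e-05). In ICH+P7C3-A20 against ICH the change was 1.75 ± 0.56 (95% interval 0.48 to 3.02, adjusted p = 0.0904), and 1.08 with both of those libraries left out (adjusted p = 0.0042). That shorter set was chosen after seeing the data. DESeq2 called both differences, at adjusted p = 0.0349 and adjusted p = 0.0251. Against sham, ICH+P7C3-A20 gave 0.21 (95% interval -1.02 to 1.44), with a sign that turned when ICH+P7C3-A20 1 (-0.46) or sham 3 (-0.19) was left out. With both out it was -0.86 (adjusted p = 0.0131).

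**Figure D3:**
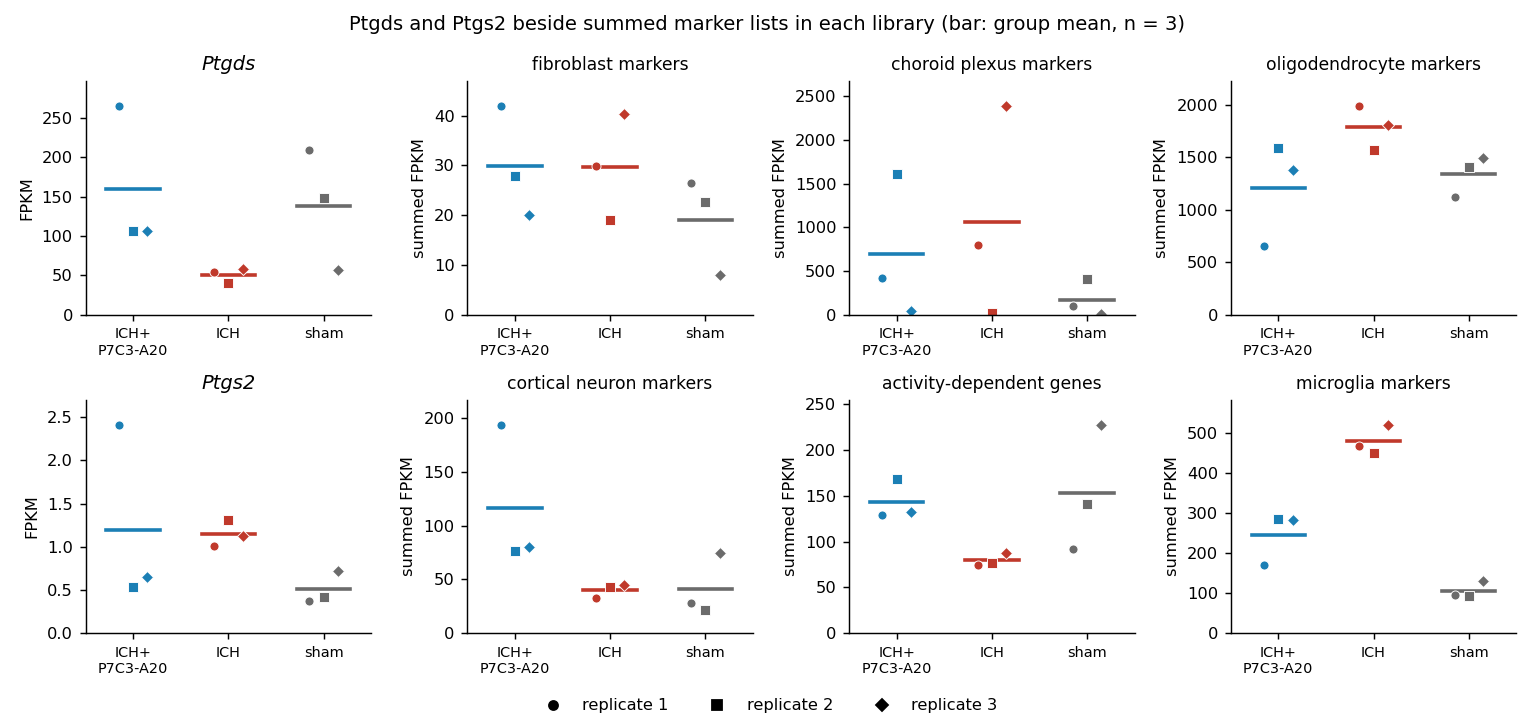
Ptgds and Ptgs2 (FPKM) beside the summed FPKM of marker lists in each library, with ICH+P7C3-A20 in blue, ICH in red and sham in grey, symbols for replicates and bars for group means. ICH+P7C3-A20 1 is the highest library in Ptgds, Ptgs2, fibroblast and cortical neuron markers and the lowest in oligodendrocyte markers, at 652, and sham 3 is the lowest in fibroblast markers, at 8.04.

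Markers of the cell types known for Ptgds were measured in the same libraries. Meningeal and perivascular fibroblast markers (10 genes) summed to 41.9, 27.8 and 20.1 FPKM in ICH+P7C3-A20, 29.9, 19.1 and 40.3 FPKM in ICH and 26.4, 22.7 and 8.04 FPKM in sham, and ICH+P7C3-A20 1 was the highest library in this sum and in Ptgds, while sham 3 was the lowest in the sum and the lowest of sham in Ptgds. Igf2 made up 70.2% of the sum of 40.3 in ICH 3. Without Igf2, a choice made after seeing the data, the sums were 9.99 to 20.6 in ICH+P7C3-A20, 12.01 to 14.9 in ICH and 4.57 to 14.0 in sham, with ICH 3 the lowest of ICH and the same libraries highest and lowest of all. The list was split in ICH against sham. Lum, Col1a1 and Col1a2 were called higher (log2 change 1.41, 1.35 and 0.93, adjusted p = 0.0146, 0.0475 and 0.0307), whereas Slc22a6 (-1.56), Foxc2 (-1.42), Crabp2 (-0.83) and Slc6a13 (-0.80) had lower means in ICH without passing (adjusted p = 0.170 to 0.299). In ICH+P7C3-A20 against ICH the same 4 had log2 changes of 1.97, 1.68, 1.21 and 1.03, and 0 of the 10 markers were called in either comparison of ICH+P7C3-A20. Choroid plexus markers (8 genes) summed to 416, 1613 and 46.0 in ICH+P7C3-A20 and to 794, 17.7 and 2388 in ICH. In sham they summed to 98.7, 408 and 12.1. The highest of these libraries, ICH 3, was low in Ptgds, yet it was the highest of ICH in both. ICH 2 was the lowest of ICH in both, and sham 3 the lowest of sham in both. The sum was highest in ICH+P7C3-A20 2 and sham 2 of their groups, whereas Ptgds was highest in ICH+P7C3-A20 1 and sham 1. Oligodendrocyte markers (8 genes) summed to 652 to 1593 in ICH+P7C3-A20, 1568 to 1990 in ICH and 1127 to 1492 in sham, and edgeR called 0 of them in each comparison. The part of these cell types in the Ptgds values was not tested.

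The ratio of Ptgds to Hpgds FPKM was 116, 38.2 and 30.5 in ICH+P7C3-A20, 10.2, 9.14 and 11.7 in ICH and 147, 111 and 35.7 in sham. All 3 ICH libraries had a lower ratio than any other library. Ptgds was nevertheless the larger of the pair in every library.

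Alox5ap, Alox5 and Ltc4s, the 3 members of the leukotriene branch, were each higher in ICH than in sham and lower in ICH+P7C3-A20 than in ICH, while Lta4h, which makes leukotriene B4, was not called in either comparison. Alox5ap, the membrane protein that hands arachidonic acid to 5-lipoxygenase, had 3.80, 8.55 and 10.1 FPKM in ICH+P7C3-A20, 23.8, 21.2 and 20.5 FPKM in ICH and 1.62, 1.72 and 1.39 FPKM in sham. Mean CPM in ICH was 13.2 times that in sham, the largest log2 change among the members, 3.73 ± 0.32 (adjusted p = 2.05e-05). In ICH+P7C3-A20 it was below ICH by a log2 change of -1.50 ± 0.29 (adjusted p = 0.0127) and above sham by 2.23 (adjusted p = 0.00215), a call that ended with unfiltered limma (1.63, adjusted p = 0.0566). The groups were separate, and ICH+P7C3-A20 1 was the lowest of its group.

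Alox5, the lipoxygenase itself, was the least abundant member on average in all 3 groups, at 0.34, 0.43 and 0.38 FPKM in ICH+P7C3-A20, 1.08, 1.02 and 1.08 FPKM in ICH and 0.16, 0.26 and 0.20 FPKM in sham. Its spread within groups was small beside the distance of ICH from the other groups. The log2 change was 2.28 ± 0.26 in ICH against sham (adjusted p = 1.17e-04) and -1.40 ± 0.25 in ICH+P7C3-A20 against ICH (adjusted p = 0.00974). The value against sham, 0.87, missed the threshold (adjusted p = 0.0781) and passed without sham 2 (0.0473). The ratio of Alox5ap to Alox5 FPKM was 11.3, 19.8 and 26.4 in ICH+P7C3-A20, 22.0, 20.8 and 19.0 in ICH and 10.1, 6.71 and 6.78 in sham, so the activating protein was the more abundant transcript throughout and its excess was larger in ICH than in sham.

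Ltc4s, which makes the parent of the cysteinyl leukotrienes, had 2.73, 4.69 and 4.15 FPKM in ICH+P7C3-A20, 7.77, 6.91 and 9.14 FPKM in ICH and 1.46, 1.68 and 2.08 FPKM in sham, with separate groups. It rose in ICH against sham (2.12 ± 0.21, adjusted p = 5.58e-05) and was lower in ICH+P7C3-A20 than in ICH (-0.98 ± 0.20, adjusted p = 0.0177). It was still higher in ICH+P7C3-A20 than in sham (1.14, adjusted p = 0.0104), a call that ended without ICH+P7C3-A20 3 (adjusted p = 0.0532), with only the compared groups fitted (0.0762) and with limma (0.0557, or 0.138 with no filter). Antisense genes overlap Ltc4s (Gm26542, 17 to 85 counts), Alox5ap (Gm19719, 8 to 38 counts), Hpgds (Gm17147, 16 to 47 counts) and Ptgs1 (Gm43621, 3 to 45 counts). These counts are low beside those of Ptgs1, Hpgds and Alox5ap, which were at least 144 in each library, and beside the 106 to 604 counts of Ltc4s.

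The 8 members called higher in ICH against sham kept that call in every alternative analysis and with any library left out. The 6 called lower in ICH+P7C3-A20 against ICH depended more on single libraries. Tbxas1 and Alox5 kept their calls with each of the 6 libraries of that comparison left out in turn, with adjusted p up to 0.0433 for Tbxas1 and 0.0472 for Alox5. Without ICH 1, 2 or 3 the number called lower was 3, 2 and 3, and without ICH+P7C3-A20 1, 2 or 3 it was 4, 5 and 6. Alox5ap lost its call without ICH 1 (adjusted p = 0.0511) and ICH 2 (0.0519), Pla2g4a without ICH 2 (0.0612) and ICH 3 (0.0628), Ltc4s without any ICH library (0.0576 to 0.0773) or ICH+P7C3-A20 1 (0.0580), and Hpgds in all of these cases and without ICH+P7C3-A20 2 (0.0563 to 0.0970). The log2 changes of these 4 genes kept their sign each time.

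**Figure D4:**
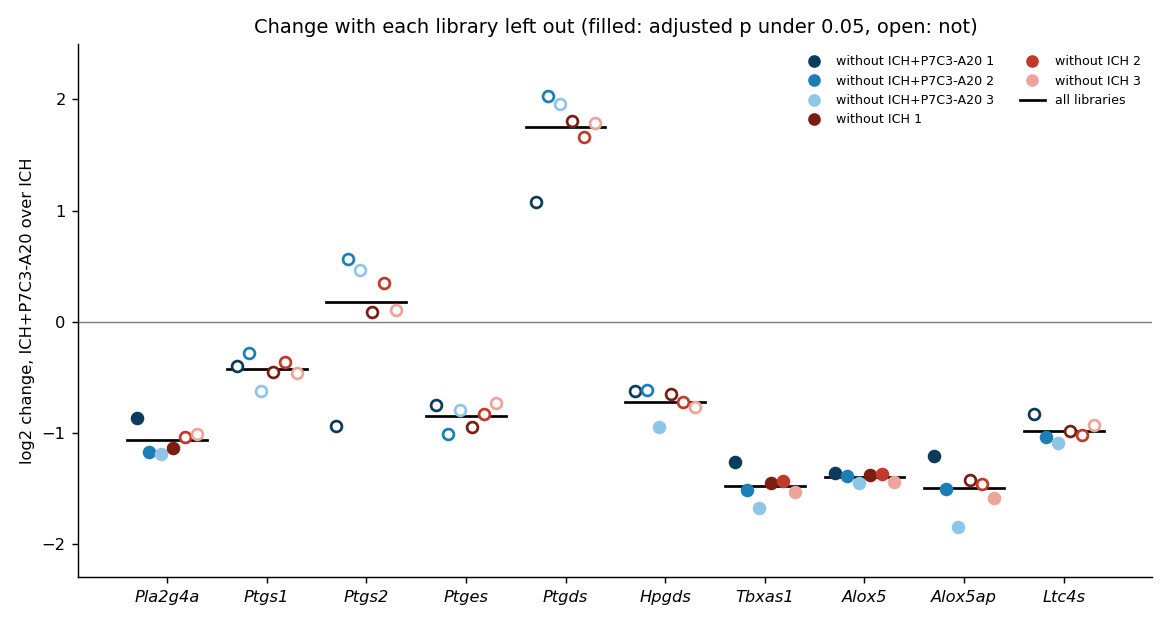
log2 change of each member in ICH+P7C3-A20 over ICH with each library of the 2 groups left out in turn (blue shades: an ICH+P7C3-A20 library left out, red shades: an ICH library left out). Filled circles have an adjusted p under 0.05 and the black bar is the value with all libraries. Tbxas1 and Alox5 are filled throughout, and Ptgs2 turns to -0.94 without ICH+P7C3-A20 1.

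Markers of myeloid cells moved with the members, and so did many markers of endothelial cells and astrocytes. Of 10 microglia markers 10 were higher in ICH than in sham, 6 lower in ICH+P7C3-A20 than in ICH and 10 higher in ICH+P7C3-A20 than in sham, and their summed FPKM was 170 to 286 in ICH+P7C3-A20, 451 to 521 in ICH and 92.8 to 131 in sham. Of 10 monocyte and macrophage markers 10, 7 and 7 were called in the same directions, with sums of 29.8 to 66.2 in ICH+P7C3-A20, 181 to 228 in ICH and 6.90 to 8.44 in sham. Lyz2 made up 53.8% to 85.95% of those sums. Neutrophil markers (8 of 10 tested) summed to 6.37 to 11.2 in ICH+P7C3-A20, 12.5 to 20.7 in ICH and 2.03 to 3.41 in sham, of which Csf3r made up 55.0% to 93.4%. Of the 8 tested, 4 were called higher in ICH than in sham (S100a9, Cxcr2, Csf3r and Mmp8), 1 lower in ICH+P7C3-A20 than in ICH (Csf3r) and 2 higher in ICH+P7C3-A20 than in sham. The granule genes Ngp, Camp and Ltf were called in none of the 3 comparisons, and Ly6g was at 0 in 8 of the 9 libraries. Of 6 mast cell markers 1 could be tested and 4 or 5 were at 0 in the library with most zeros of each group. Platelet markers (6 of 7 tested) summed to 1.96 to 4.45 in ICH+P7C3-A20, 7.97 to 9.10 in ICH and 1.16 to 1.59 in sham, with 3 called higher in ICH than in sham (Pf4, Itga2b and Treml1), 1 lower in ICH+P7C3-A20 than in ICH (Pf4) and 2 higher in ICH+P7C3-A20 than in sham. Pf4 made up 23.1% to 83.3% of that sum, and Ppbp and Gp1bb were not called in ICH against sham. Of 8 endothelial markers 7 were higher in ICH than in sham and 3 lower in ICH+P7C3-A20 than in ICH. Their sums were 38.0 to 58.5 in ICH+P7C3-A20, 71.6 to 90.6 in ICH and 26.6 to 42.6 in sham. Of 8 astrocyte markers 7 were higher in ICH than in sham, with 3 lower and 1 higher in ICH+P7C3-A20 against ICH. Of 8 neuron markers 6 were lower in ICH than in sham and 2 higher in ICH+P7C3-A20 than in ICH. The part of these cells in the members' changes was not tested.

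Set against summed markers of the same library, the order of ICH and sham depended for some members on which myeloid list was the denominator. Ltc4s FPKM was 1.47% to 1.64% of the microglia sum in ICH+P7C3-A20, 1.53% to 1.76% in ICH and 1.53% to 1.81% in sham, so the groups overlapped. Hpgds was 0.975% to 1.34% of it in ICH+P7C3-A20, 0.945% to 1.14% in ICH and 1.22% to 1.50% in sham, with every ICH library below every sham library. Ptgs1 was likewise lower in ICH, with 1.22% to 2.01% in ICH+P7C3-A20, 1.08% to 1.20% in ICH and 2.07% to 2.54% in sham. Hpgds and Ptgs1 were lower in ICH than in sham against the monocyte and macrophage sum as well. Hpgds was 1.965% to 2.94% of that sum in ICH and 16.8% to 20.65% in sham, and Ptgs1 2.38% to 2.87% and 28.6% to 35.6%. Alox5ap and Tbxas1 went the other way against microglia markers. For Alox5ap the share was 2.24% to 3.56% in ICH+P7C3-A20, 3.93% to 5.08% in ICH and 1.06% to 1.85% in sham, without overlap. For Tbxas1 it was 0.304% to 0.345% in ICH+P7C3-A20, 0.453% to 0.521% in ICH and 0.166% to 0.257% in sham. Against the monocyte and macrophage sum, most of which was Lyz2, the order of ICH and sham turned round for both genes. Alox5ap was then 12.7% to 15.2% in ICH+P7C3-A20, 9.28% to 13.1% in ICH and 16.4% to 23.4% in sham, and Tbxas1 was 1.47% to 1.73% in ICH+P7C3-A20, 1.02% to 1.35% in ICH and 2.29% to 3.996% in sham. That turn rests on Lyz2. Without Lyz2, a choice made after seeing the data, the sums were 25.5, 36.3 and 34.4 in ICH and 3.19, 3.01 and 3.65 in sham. Alox5ap was a larger part of these sums in every ICH library than in any sham library, and for Tbxas1 the 2 groups overlapped. The Alox5ap groups nearly met, at 21.2 of 36.3 FPKM in ICH 2 and 1.72 of 3.01 FPKM in sham 2. These shares describe the libraries and were not tested.

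By mean FPKM the order of the members differed between groups. Ptgds came first in all 3 groups, at 159 ± 91.5 in ICH+P7C3-A20, 50.97 ± 8.84 in ICH and 139 ± 76.9 in sham (SD, n = 3 each). Alox5ap was second in ICH+P7C3-A20 (7.48 ± 3.28) and in ICH (21.8 ± 1.73), where it lay above Ltc4s without overlap, and had rank 4 in sham (1.57 ± 0.17), where Ptgs1, Ltc4s, Alox5ap and Hpgds overlapped from each gene to the next. In ICH, Tbxas1, Pla2g4a and Ptges overlapped from each to the next, as did Ptgs2 and Alox5. In ICH+P7C3-A20 all neighbours from Alox5ap to Tbxas1 overlapped, and Alox5 lay below them.

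The other genes of the pathway came from 5 lists holding 61 genes, of which 60 were in the table in 1 row each and 54 were tested. In ICH against sham 15 were higher and 1 lower, in ICH+P7C3-A20 against ICH 1 was higher and 6 were lower, and in ICH+P7C3-A20 against sham 7 were higher and 0 lower. Their median log2 changes in the same order were 0.25, -0.10 and 0.19, against 0.002, -0.007 and 0.027 for all tested genes. Over all tested genes 15.6% were higher and 10.4% lower in ICH against sham. The shares were 2.69% and 6.05% in ICH+P7C3-A20 against ICH, and 4.58% and 0.744% in ICH+P7C3-A20 against sham. With each library of the comparison left out in turn, 14 of the 16 calls of ICH against sham, 1 of the 7 of ICH+P7C3-A20 against ICH (Cyp4f18) and 2 of the 7 of ICH+P7C3-A20 against sham (Cmklr1 and Cyp4f18) held every time.

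**Figure D5:**
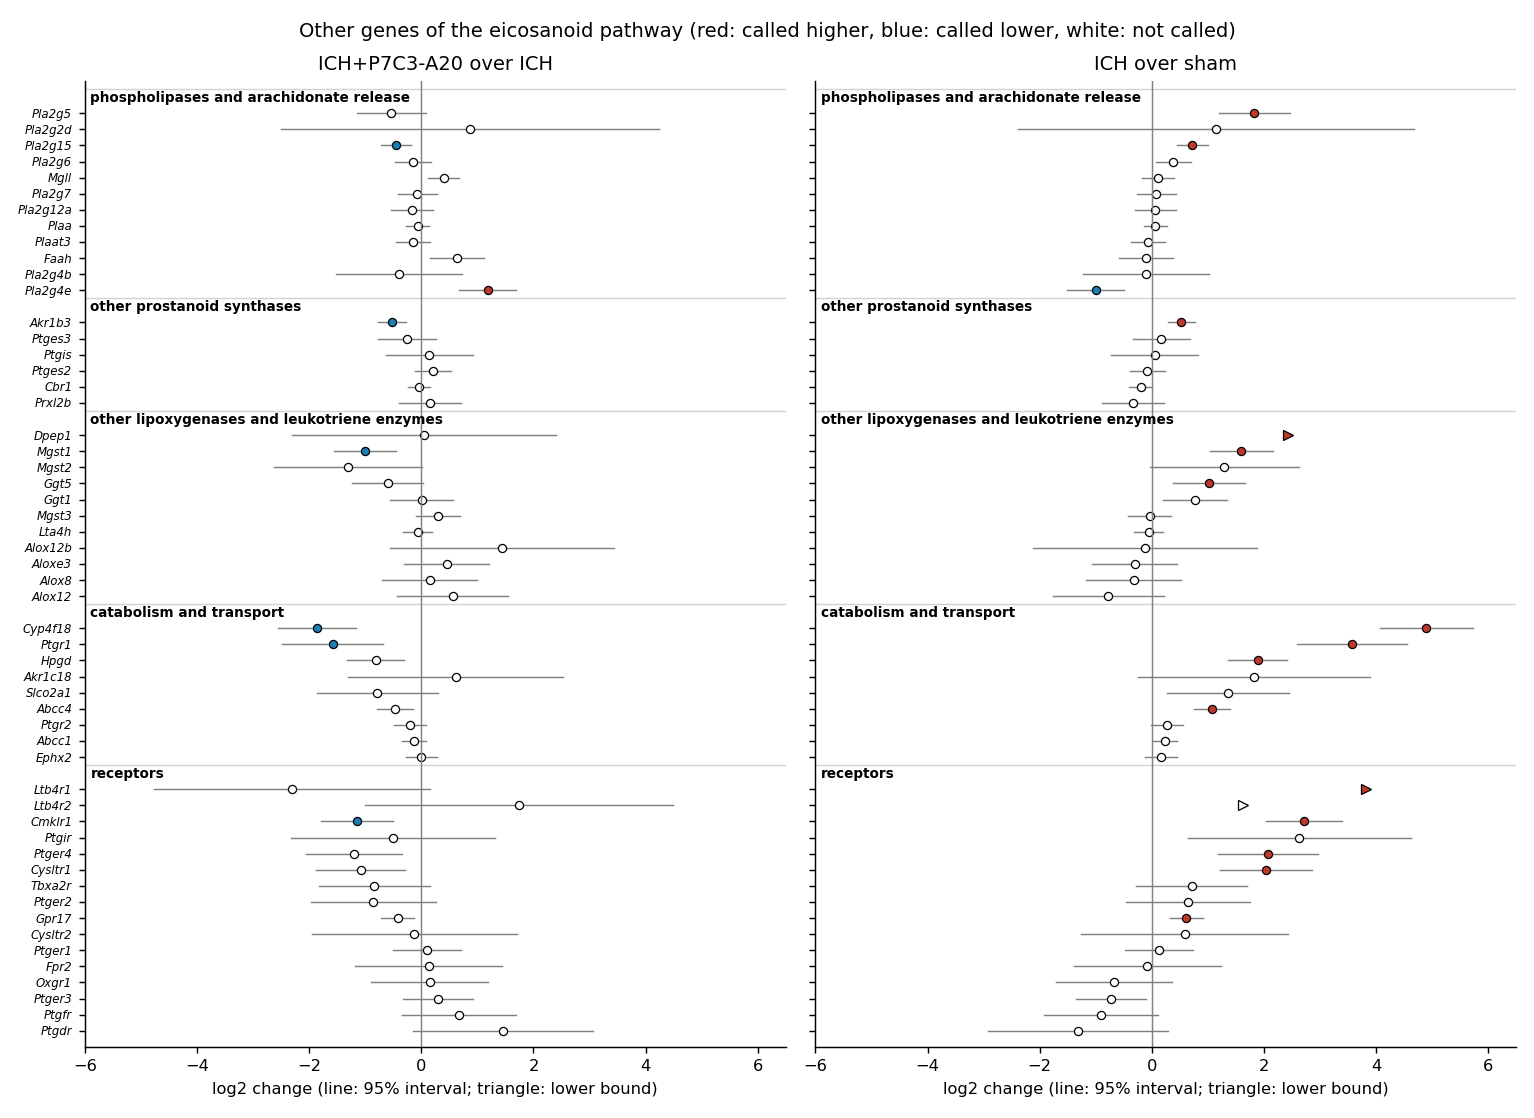
log2 changes of the 54 tested genes of the wider pathway, grouped by role, in ICH+P7C3-A20 over ICH (left) and ICH over sham (right). Lines are 95% intervals, red and blue mark genes called higher and lower, and triangles are lower bounds for genes with no count in sham. On the right 4 of 9 genes of catabolism and transport and 5 of 16 receptors are red, against 15.6% of all tested genes.

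Among phospholipases and other enzymes of arachidonate release, 2 of 12 tested genes were higher in ICH than in sham and 1 was lower, counts close to the 15.6% and 10.4% of all tested genes. The higher ones were Pla2g5, a secreted phospholipase A2 (log2 change 1.83 ± 0.29, adjusted p = 0.00105), and Pla2g15, the lysosomal phospholipase (0.72 ± 0.12, adjusted p = 0.00158). Pla2g4e, a relative of Pla2g4a in the group IV family, had 0.84, 0.63 and 0.76 FPKM in ICH+P7C3-A20, 0.36, 0.32 and 0.35 FPKM in ICH and 0.69, 0.54 and 0.76 FPKM in sham. It thus ran opposite to Pla2g4a, lower in ICH than in sham (-1.0 ± 0.23, adjusted p = 0.00878) and higher in ICH+P7C3-A20 than in ICH (1.19 ± 0.23, adjusted p = 0.0133), the second a call that ended without ICH 2 (0.0556) or ICH 3 (0.0595). Pla2g15 was lower in ICH+P7C3-A20 than in ICH (-0.45 ± 0.12, adjusted p = 0.0465), which did not hold with any of the 6 libraries left out (0.0664 to 0.175).

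Of the 6 other prostanoid synthases, 1 was called, again near the 15.6% of all tested genes. It was Akr1b3, an aldose reductase with prostaglandin F synthase activity. It was higher in ICH than in sham (0.53 ± 0.11, adjusted p = 0.00588) and lower in ICH+P7C3-A20 than in ICH (-0.52 ± 0.11, adjusted p = 0.0194), a call that held without ICH+P7C3-A20 2 and ended without any of the other libraries of that comparison (0.0562 to 0.0840). Among 11 tested lipoxygenases and leukotriene enzymes 3 were higher in ICH, against 15.6% of all tested genes, and 8, Lta4h among them, were not called. Mgst1, a microsomal glutathione transferase related to Ltc4s, had a log2 change of 1.59 ± 0.25 (adjusted p = 0.00113) and was lower in ICH+P7C3-A20 than in ICH (-1.0 ± 0.25, adjusted p = 0.0346), though not without ICH 1, 2 or 3 (0.0716 to 0.125). Ggt5, which trims leukotriene C4 to leukotriene D4, had 1.02 ± 0.29 in ICH against sham (adjusted p = 0.0244), a call that ended without ICH 1, ICH 2, sham 1 or sham 2 (0.0553 to 0.110). Dpep1, the dipeptidase that makes leukotriene E4, had 12, 29 and 8 counts in ICH+P7C3-A20, 9, 3 and 37 in ICH and 0 in all sham libraries, and mean CPM was at least 5.35-fold higher in ICH than in sham when sham is set to 3 counts per library (adjusted p = 0.0169). That rests on ICH 3, since without it the bound was 2.07-fold and the adjusted p 0.0660.

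Catabolism and transport had the largest median of the lists in ICH against sham, a log2 change of 1.36. In it 4 of 9 genes were called higher, against 15.6% of all tested genes. Cyp4f18, which hydroxylates leukotriene B4 in mouse neutrophils, had 0.59, 0.94 and 1.01 FPKM in ICH+P7C3-A20, 2.99, 2.99 and 3.71 FPKM in ICH and 0.12, 0.12 and 0.05 FPKM in sham. These groups were far apart, with a log2 change of 4.89 ± 0.38 in ICH against sham (adjusted p = 1.22e-05) and -1.86 ± 0.32 in ICH+P7C3-A20 against ICH (adjusted p = 0.00856). Ptgr1, which inactivates leukotriene B4 and reduces 15-keto prostaglandins, rose by 3.56 ± 0.44 in ICH against sham (adjusted p = 2.30e-04) and was lower in ICH+P7C3-A20 than in ICH (-1.58 ± 0.40, adjusted p = 0.0376), a call that ended without any of the 6 libraries of that comparison (0.0629 to 0.128). Hpgd, the main prostaglandin-degrading dehydrogenase, had 4.75, 6.94 and 9.41 FPKM in ICH+P7C3-A20, 14.4, 12.04 and 12.2 FPKM in ICH and 3.73, 2.87 and 3.53 FPKM in sham. It was higher in ICH than in sham (1.88 ± 0.24, adjusted p = 2.48e-04) and higher in ICH+P7C3-A20 than in sham (1.07 ± 0.23, adjusted p = 0.0256, which ended without ICH+P7C3-A20 3 or any sham library, at 0.0509 to 0.0858), while the value against ICH was -0.82 ± 0.23 (adjusted p = 0.0541). Abcc4, a prostaglandin exporter, was higher in ICH than in sham (1.07 ± 0.15, adjusted p = 4.28e-04).

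Of 16 tested receptors 5 were higher in ICH than in sham, against 15.6% of all tested genes. Cmklr1, a receptor for chemerin and resolvin E1, had 1.61, 1.77 and 3.08 FPKM in ICH+P7C3-A20, 4.98, 5.71 and 4.18 FPKM in ICH and 0.85, 0.69 and 0.67 FPKM in sham. It was the one receptor called in ICH+P7C3-A20 against ICH (-1.14 ± 0.29, adjusted p = 0.0369, which held without ICH+P7C3-A20 3 and ended without any of the other 5 libraries, at 0.0591 to 0.137), after a log2 change of 2.71 ± 0.31 in ICH against sham (adjusted p = 1.23e-04). Cysltr1, a receptor for cysteinyl leukotrienes, had 2.03 ± 0.37 in ICH against sham (adjusted p = 0.00255), Ptger4, a prostaglandin E2 receptor, 2.07 ± 0.40 (adjusted p = 0.00355), and Gpr17, a receptor of oligodendrocyte precursors related to those for cysteinyl leukotrienes, 0.61 ± 0.13 (adjusted p = 0.00657). Ltb4r1, the high-affinity leukotriene B4 receptor, had 13, 0 and 9 counts in ICH+P7C3-A20, 35, 43 and 46 in ICH and 0 in all sham libraries. Mean CPM was at least 14.1-fold higher in ICH than in sham at 3 counts per sham library (adjusted p = 0.00832). Ltb4r1 was added to the named genes after its values were seen.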

How the data were processed

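Polyadenylated RNA of RIN above 7 was made into stranded libraries, per the labels' protocols. The submitters' processing notes name cutadapt 1.9, HISAT2 2.0.4 and StringTie 1.3.4d. What made the counts, the strand setting and the genome build are items not given in the sources used here. For 35112 genes the authors deposited FPKM and estimated counts, the counts as whole numbers. Of low genes with 1 transcript, 96.02% to 96.84% per library had a count equal to FPKM times length times a constant, rounded up (tolerance 0.01), so the deposited counts are estimates from coverage. Of the gene IDs, 34996 are in GENCODE M21 and 30806 have the identical position and strand there.

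Low genes were removed with filterByExpr (minimum count 10, minimum total 15), which left 21900. With TMM scaling, edgeR 4.0.16 (R 4.3.3) then fitted 3 group means to the 9 libraries by robust quasi-likelihood, leaving 6 residual degrees of freedom. Tests were two-sided, and calls needed a Benjamini-Hochberg adjusted p under 0.05 over all tested genes. Intervals are 95%. Folds against a group at 0 used 3 counts per library as the floor, which covers counting error only. The steps were tested on simulated counts. Alternatives were other filters and scalings, DESeq2 1.42.0, limma 3.58.1 on log2 FPKM, fits to the compared groups, a block for the replicate number and leaving out each library. Motifs were matched on both strands in RefSeq promoter windows, besides those printed also for AP-1 and NF-kappaB. Figures were drawn with matplotlib 3.10.9.

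Members and lists were chosen with earlier results of these data known. All members were named. From each wider list up to 4 genes with the smallest p in ICH against sham and up to 2 in ICH+P7C3-A20 against ICH were named among called genes.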

Additional observations from a re-analysis of the deposited data

How the results depend on the processing

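Counts below are of genes called. ICH against sham gave 8 members higher in all alternatives but 2, which gave 9 (only the compared groups, and ICH+P7C3-A20 1 and sham 3 left out together, an alternative chosen after seeing the data). Members lower were 1 (Ptgds) with DESeq2, with those 2 libraries out and without sham 3 (range over libraries left out 0 to 1), and wider-list genes were 10, against 16, at a mean FPKM of at least 1. All genes were 3208, against 5701, with unfiltered limma, and the share called higher, 60%, was 47.1% after quantile normalization.

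For ICH+P7C3-A20 with ICH as reference, members lower were 7 with DESeq2, with only the compared groups and after quantile normalization, 5 with unfiltered limma and 2 to 6 over libraries left out, against 6, and members higher 1 (Ptgds) with DESeq2, with only the compared groups and with the 2 libraries out. Wider-list genes were 14 with DESeq2, against 7, and 1 to 5 over libraries left out. All genes were 3532 with DESeq2, 1250 with limma at a pseudocount of 0.1 and 961 unfiltered, against 1914, and 571 to 1954 over libraries left out. The share called higher, 30.8%, was 40.6% with upper-quartile scaling and 13.3% with limma at a pseudocount of 1. Ptgs2 reversed to -0.064 with limma at that pseudocount, filtered or not, -0.23 at 0.1, -0.080 with the replicate block and -0.94 with the 2 libraries out, and over libraries left out it ran from -0.94 to 0.57.

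With sham as reference for ICH+P7C3-A20, members higher were 8 with DESeq2, 1 with limma, 2 after quantile normalization and 0 unfiltered, against 4. Members lower were 1 (Ptgds) with the 2 libraries out. Wider-list genes, 7 in the report, were 12 with DESeq2, 1 with limma, with quantile normalization and with only the compared groups, 4 at a pseudocount of 0.1, 0 unfiltered, and 2 to 7 over libraries left out. All genes were 2109 with DESeq2, 331, 527, 475 and 135 with limma at pseudocounts of 1 and 0.1, after quantile normalization and unfiltered, 435 with only the compared groups, 2222 with the 2 libraries out and 538 to 1434 over libraries left out, against 1165. Ptgds reversed to -0.86 with the 2 libraries out and ran from -0.46 to 0.67 over libraries left out. The causes were not tested.

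No pairing by replicate number was seen, since deviations of same-numbered libraries correlated at -0.128 to 0.092. Such correlations over all tested genes do not show whether same-numbered libraries shared a batch. A fit with the number as a block called 8 members higher, 6 lower and 4 higher in the 3 comparisons, as without it. Precision is limited by 3 animals a group.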

Other observations

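Not every enzyme around these members differed between groups. Lta4h, which turns leukotriene A4 into leukotriene B4 and so competes with Ltc4s for its substrate, had 3.67, 5.67 and 4.22 FPKM in ICH+P7C3-A20, 4.85, 4.19 and 5.59 FPKM in ICH and 4.66, 4.28 and 5.78 FPKM in sham. The groups overlapped, and its log2 change was -0.06 in ICH against sham (95% interval -0.32 to 0.20, adjusted p = 0.777, edgeR) and -0.06 in ICH+P7C3-A20 over ICH (95% interval -0.32 to 0.19, adjusted p = 0.810). Ephx2, the soluble epoxide hydrolase that acts on fatty acid epoxides, had 5.24, 6.94 and 5.80 FPKM in ICH+P7C3-A20, 6.26, 6.06 and 6.21 FPKM in ICH and 4.57, 4.85 and 6.73 FPKM in sham, with log2 changes of 0.16 in ICH against sham (95% interval -0.12 to 0.44) and 0.0035 in ICH+P7C3-A20 over ICH (-0.28 to 0.29). Both genes were picked here after their values were seen.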
